A study of Homo sapiens with 12 samples.

Results

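Solute carriers (SLC) are membrane proteins that move amino acids, sugars, ions, metals, vitamins and nucleotide sugars across the plasma membrane and the membranes of organelles. Most do not hydrolyse ATP and are driven by the gradient of their substrate or of a coupled ion. The families are numbered by sequence, so that members of a family usually share a class of substrate. The mRNAs described here are those of human protein-coding genes whose symbol begins with SLC and carries the family number, the series letter and the member number, without the mitochondrial SLC25 family. A peak was assigned to such a gene where it overlapped one of its exons on the same strand (GENCODE version 44). Of the 323 genes that met this rule, 53 had at least 1 peak, which is 16.4% (95% Wilson interval 12.8 to 20.8) beside 18.1% of the 20046 protein-coding genes. These 53 genes held 265 of the 18128 deposited peaks, or 1.46%.

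The peaks came from enhanced cross-linking and immunoprecipitation (eCLIP), in which UV light links a protein to the RNA it touches in living cells and the RNA recovered with the protein is sequenced. The cells were Lenti-X 293T, a HEK 293T human embryonic kidney line that takes up plasmids readily, and they were transfected with V5-dSpCas9, with 3xFLAG-dSpCas9 or with an empty vector. dSpCas9 is the catalytically dead Cas9 of Streptococcus pyogenes, expressed here in the cytoplasm and without its guide RNA. All cells received UV light of 400 mJ/cm2 in 2 exposures, and membranes were cut from 115 kDa upward. Each antibody had 2 dSpCas9 IP libraries, 2 size-matched input libraries (RNA of the same membrane region from dSpCas9 cells, without IP) and 2 IP libraries from empty vector cells, 12 libraries in all. 4 lists of peaks resulted, V5 over size-matched input, V5 over empty vector IP, and the same pair for FLAG. Enrichment is given as deposited, on the log2 scale, and states how many more reads a peak had in the IP than in its control as a geometric mean of both replicates. No peak lay below 3.00, because the study kept only peaks that passed a cutoff in enrichment and in p-value. Where a list had no peak on a gene, none passed this cutoff, which does not show that enrichment was absent. All medians below are of peaks that passed. As each list holds 1 value for both replicates, no enrichment has a replicate error, the depth behind it is unknown, and no test between lists or genes was possible. The Wilson intervals given with shares allow for counting error alone and treat peaks as independent, which neighbours on 1 mRNA are not. Both lists of an antibody share their IP libraries. Expression of the carriers was not analysed here, so that a gene without a peak may simply not have been expressed.

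An interval was called reproducible where the peaks of all 4 lists overlapped by at least 50% of the first interval, intersecting the V5 lists first, then the FLAG lists, then both antibodies. This intersection gave 749 reproducible intervals. It is not the study's own reproducible set, which holds fewer peaks in fewer genes and whose carriers are not listed here. Of the 749 intervals, 7 lay on solute carrier mRNAs, in 4 genes. The following stretches of these intervals are shown because each holds a GU directly followed by 5 bases that were predicted to be paired, the arrangement (GU-loop:5nt-stem) in which the guide RNA is held by Cas9. All are on hg38, written 5′ to 3′ in the sense of the mRNA, and capitals mark the GU (as GT) and the 5 bases.

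SLC11A2 3′ UTR, chr12:50987119-50987148, minus strand: ggagctctggaGTCAGAGgaaatgggtgtc
SLC11A2 end of exon 2, chr12:51010695-51010702, minus strand: GTCAGATg
SLC39A9 end of the CDS, chr14:69458454-69458483, plus strand: tcctccctgagGTGGGCGgaatagggcaca
SLC7A5 3′ UTR, chr16:87830600-87830629, minus strand: cttggtgctgtGTGCCCCactccagcctgg

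The predicted probability that the U was paired was 0.692, 0.532, 0.374 and 0.373 in this order, against a limit of 0.7. The interval of SLC41A3 met no such arrangement. The 30 nt at its centre, shown for comparison with its GU dinucleotides in capitals, lie on the minus strand.

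SLC41A3 3′ UTR, chr3:126006668-126006697, minus strand: aGTatgctttgcaggGTGTGTttgctcttt

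Metal carriers held 6 of the 7 reproducible intervals. SLC11A2 (ENSG00000110911.17, chr12:50979401-51028566, minus strand), the proton-coupled importer of ferrous iron, held 4 of them and had 17 peaks in all. On its mRNA of 4132 nt, the reproducible intervals lay at 2 places. The first was at the start of the reading frame. In exon 2 of 16, the peak over V5 input was divided into a piece of 9 nt with a log2 enrichment of 4.98 and a piece of 61 nt at 4.97, whereas V5 over empty vector had a single peak at 4.31, FLAG over input at 3.96 and FLAG over empty vector at 4.02. In exon 3 the peaks stood at 4.77 over V5 input, 4.25 over V5 empty vector, 4.84 over FLAG input and 4.34 over FLAG empty vector. Though 2070 nt of intron separate exons 2 and 3 in the genome, the 3 reproducible intervals of these exons join on the spliced mRNA into a single run from nt 79 to nt 203, 125 nt across the start codon at nt 114. Over V5 empty vector the peaks of both exons also had the same −log10 p of 5.51. Reads across the junction can count for the peaks on either side, so these intervals may not be independent, and the share of such reads was not tested. The bases around the start codon (in capitals) and across the junction (exon 3 in capitals, chr12:51010695-51010709 joined to chr12:51008610-51008624) read as follows.

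SLC11A2 start codon, chr12:51010714-51010743, minus strand: actcaggtatccaccATGgtgctgggtcct
SLC11A2 junction of exons 2 and 3, minus strand: agaagatgtcagatgACAGTGTTTCTGGAG

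The other such place of SLC11A2 was in the 3′ UTR, at chr12:50987110-50987176, 1148 nt after the stop codon in a 3′ UTR of 2333 nt. Its peaks stood at 4.65 over V5 input, 3.29 over V5 empty vector, 4.18 over FLAG input and 4.11 over FLAG empty vector. The lowest value was thus that of V5 over the empty vector, while both FLAG values were close to each other. Over V5 input alone, SLC11A2 had further CDS peaks in exon 5, at 3.00, and in exon 15, at 3.65.

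SLC39A9 (ENSG00000029364.12, chr14:69398015-69462390, plus strand), a zinc carrier of the ZIP family, had 13 peaks. The reproducible interval of 95 nt, chr14:69458419-69458513, lay in the CDS part of its last exon, exon 7 of 7. The peak stood at 5.11 over V5 input, 3.43 over V5 empty vector, 4.12 over FLAG input and 3.24 over FLAG empty vector. Both values over size-matched input were above both over the empty vector. Peaks went on across the stop codon into the 3′ UTR in V5 and FLAG. A second place near the end of the 3′ UTR, 3528 nt after the stop codon, stood at 5.08 over FLAG input and 4.19 over FLAG empty vector but at 3.22 over V5 input, and V5 over empty vector had no peak there.

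SLC41A3 (ENSG00000114544.17, chr3:126006357-126101561, minus strand), of the magnesium carriers of family SLC41, had 5 peaks, all in a 3′ UTR of 659 nt. The reproducible interval, chr3:126006621-126006743, began 272 nt after the stop codon. Its peaks stood at 4.78 over V5 input, 3.31 over V5 empty vector, 4.29 over FLAG input and 3.19 over FLAG empty vector. Again both values over size-matched input exceeded both over the empty vector.

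The 4th gene with a reproducible interval was SLC7A5 (ENSG00000103257.9, chr16:87830023-87869507, minus strand), the exchanger of large neutral amino acids that pairs with the heavy chain SLC3A2. It had 27 peaks, the most of any solute carrier, and 24 of them were in its 3′ UTR. The reproducible interval of 49 nt, chr16:87830590-87830638, stood at 4.26 over V5 input, 4.93 over V5 empty vector, 5.02 over FLAG input and 3.40 over FLAG empty vector. In contrast to the metal carriers, V5 was higher over the empty vector than over the input, whereas FLAG was lower. The stretch around it was cut into 3 abutting peaks over V5 input (3.34 to 4.26) and into 3 over FLAG input (4.26 to 5.02), but only the middle one was in the list of FLAG over empty vector. A CDS peak in exon 2 stood at 4.43 over V5 empty vector and 3.28 over V5 input, and no FLAG peak lay there. SLC3A2 itself had 2 CDS peaks, at 3.21 over V5 input and 3.05 over V5 empty vector, and none with FLAG. SLC3A2 was named after its values were seen.

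The member with the highest mean of its V5 and FLAG maxima over input was not among the reproducible ones. SLC38A1 (ENSG00000111371.16, chr12:46183063-46270017, minus strand), a sodium-coupled importer of neutral amino acids, had peaks in all 4 lists at the same place of its 3′ UTR of 5907 nt, near chr12:46185555-46185659. V5 gave a single peak of 105 nt, at 4.95 over input and 5.14 over empty vector. FLAG gave 3 abutting peaks of 49, 27 and 34 nt, at 5.73, 5.22 and 4.30 over input and at 4.77, 4.68 and 3.74 over empty vector, and over input a further peak of 15 nt at 3.92 adjoined them. None of the FLAG pieces covered 50% of the V5 peak, so that the place was lost when V5 was intersected first. It was kept when FLAG was intersected first, with 9 intervals in 5 genes, and with an overlap of at least 1 nt, with 13 intervals in 5 genes. The arrangement was found here too, with a probability of 0.0885 that the U was paired in the V5 peak, and is shown because this gene had the highest mean of the carriers over both inputs.

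SLC38A1 3′ UTR, chr12:46185568-46185597, minus strand: ccaatgtaccaGTCATTGaggccagcgcgc

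Where touching peaks of each list were merged before the intersection, a setting chosen after seeing the data, SLC38A1 entered at 105 nt and SLC7A5 left, and the carriers again had 4 genes, 1.24% beside 1.98% of protein-coding genes, in 6 intervals. SLC11A2, SLC39A9 and SLC41A3 passed at every overlap setting tried, and SLC11A2 was the only gene left, in 1 interval, when a log2 enrichment of at least 4 was asked of all 4 lists.

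**Figure D1:**
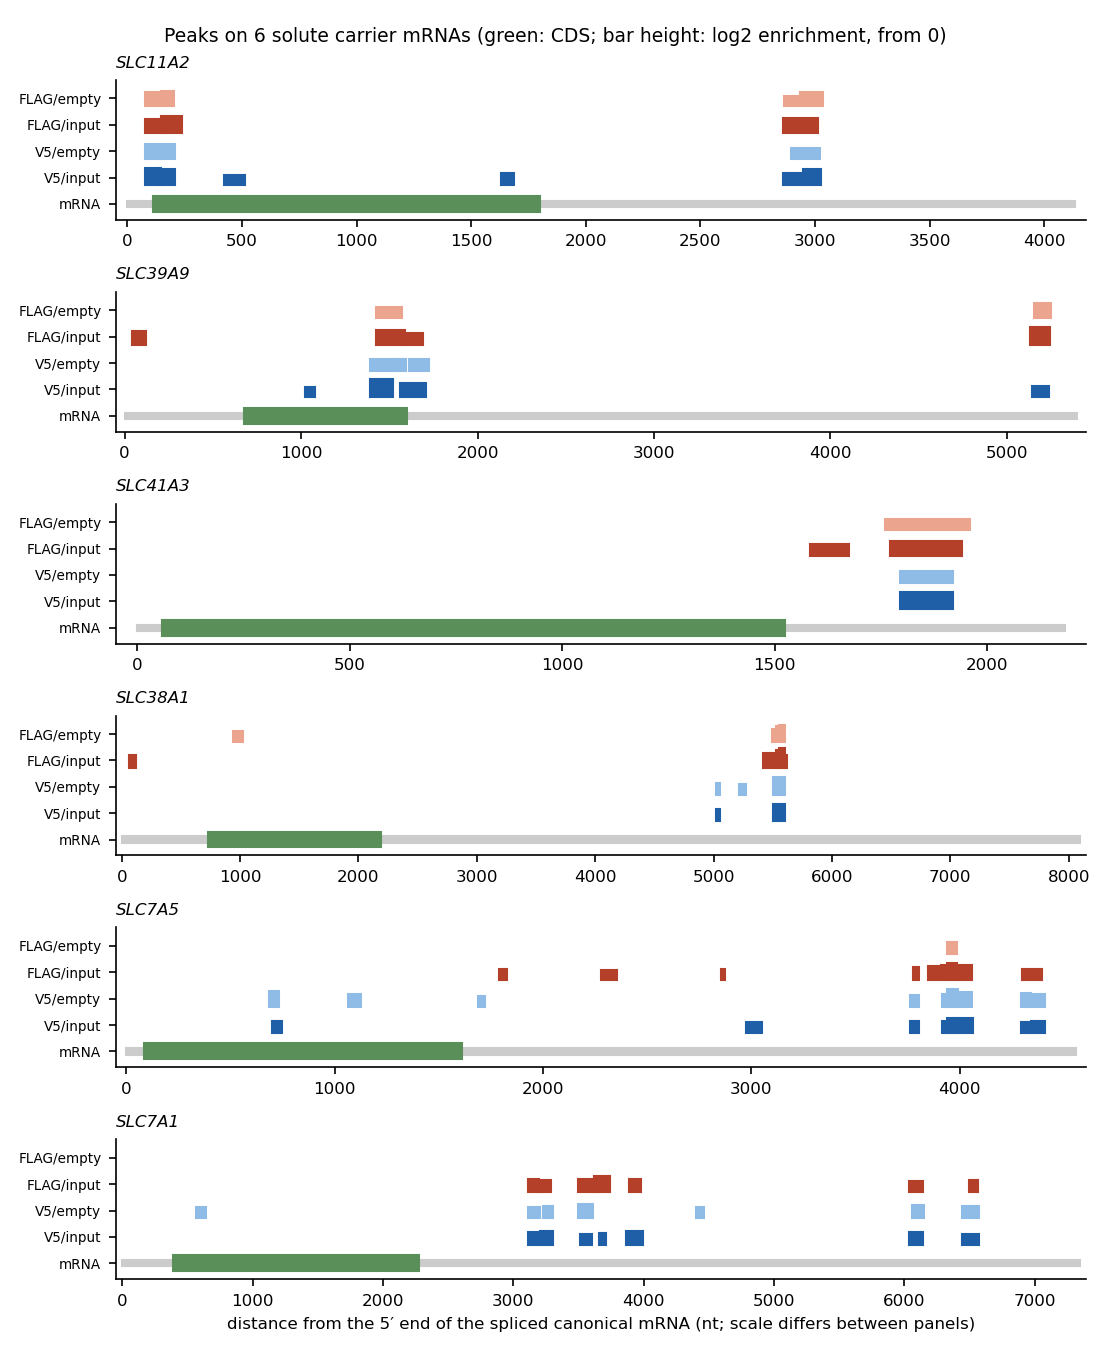
Peaks of the 4 lists along the spliced canonical mRNAs of SLC11A2, SLC39A9, SLC41A3, SLC38A1, SLC7A5 and SLC7A1. The x axis is the distance from the 5′ end in nt and differs in scale between panels; the grey line is the mRNA, the green box its CDS, and the height of a coloured bar is the log2 enrichment from 0. The peaks of SLC11A2 stack at the start codon and in the 3′ UTR, and those of SLC38A1, SLC7A5 and SLC7A1 lie mostly in the 3′ UTR.

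Per list, 40 solute carrier genes had a peak in V5 over size-matched input (12.4% of 323, beside 13.6% of protein-coding genes), 18 in V5 over empty vector IP (5.57%, beside 6.78%), 42 in FLAG over size-matched input (13.0%, beside 13.2%) and 12 in FLAG over empty vector IP (3.72%, beside 4.96%). The peaks numbered 98, 43, 104 and 20 in the same order. A peak over both inputs was found in 30 genes, 9.29% beside 9.26%. A peak in all 4 lists was found in 5 genes, 1.55% beside 2.79%, and a reproducible interval in 4 genes, 1.24% (Wilson interval 0.483 to 3.14) beside 2.07%. Taken over the 53 carriers with any peak, these shares were 56.6% beside 51.2% of protein-coding genes with any peak, 9.43% beside 15.4%, and 7.55% beside 11.4%. Every one of these shares was within its counting error of the share of all protein-coding genes. The median log2 enrichment of carrier peaks was 3.61 over V5 input (3.60 for all peaks on protein-coding mRNAs), 3.43 over V5 empty vector (3.62), 3.63 over FLAG input (3.61) and 3.65 over FLAG empty vector (3.59). No peak of a carrier reached the ceiling of 400 of the −log10 p. Of all peaks on protein-coding mRNAs, 251 of 6431, 24 of 2962, 307 of 6373 and 88 of 1927 did in these lists.

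Peaks were spread unevenly over the 53 genes. The median was 3 peaks per gene, 14 genes had a single peak, and SLC7A5, SLC7A1, SLC11A2, SLC38A1 and SLC39A9 together held 95 peaks, or 35.8%. 17 genes had a peak in 1 list only, 18 in 2 lists, 13 in 3 and 5 in 4, of which only the last was set beside all protein-coding genes. Joining overlapping and touching peaks of all lists left 140 bound places, of which 85 were in 1 list, 33 in 2, 15 in 3 and 7 in all 4. These shares were 60.7%, 23.6%, 10.7% and 5.0%, beside 57.1%, 23.1%, 12.4% and 7.39% of all bound places of the series.

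**Figure D2:**
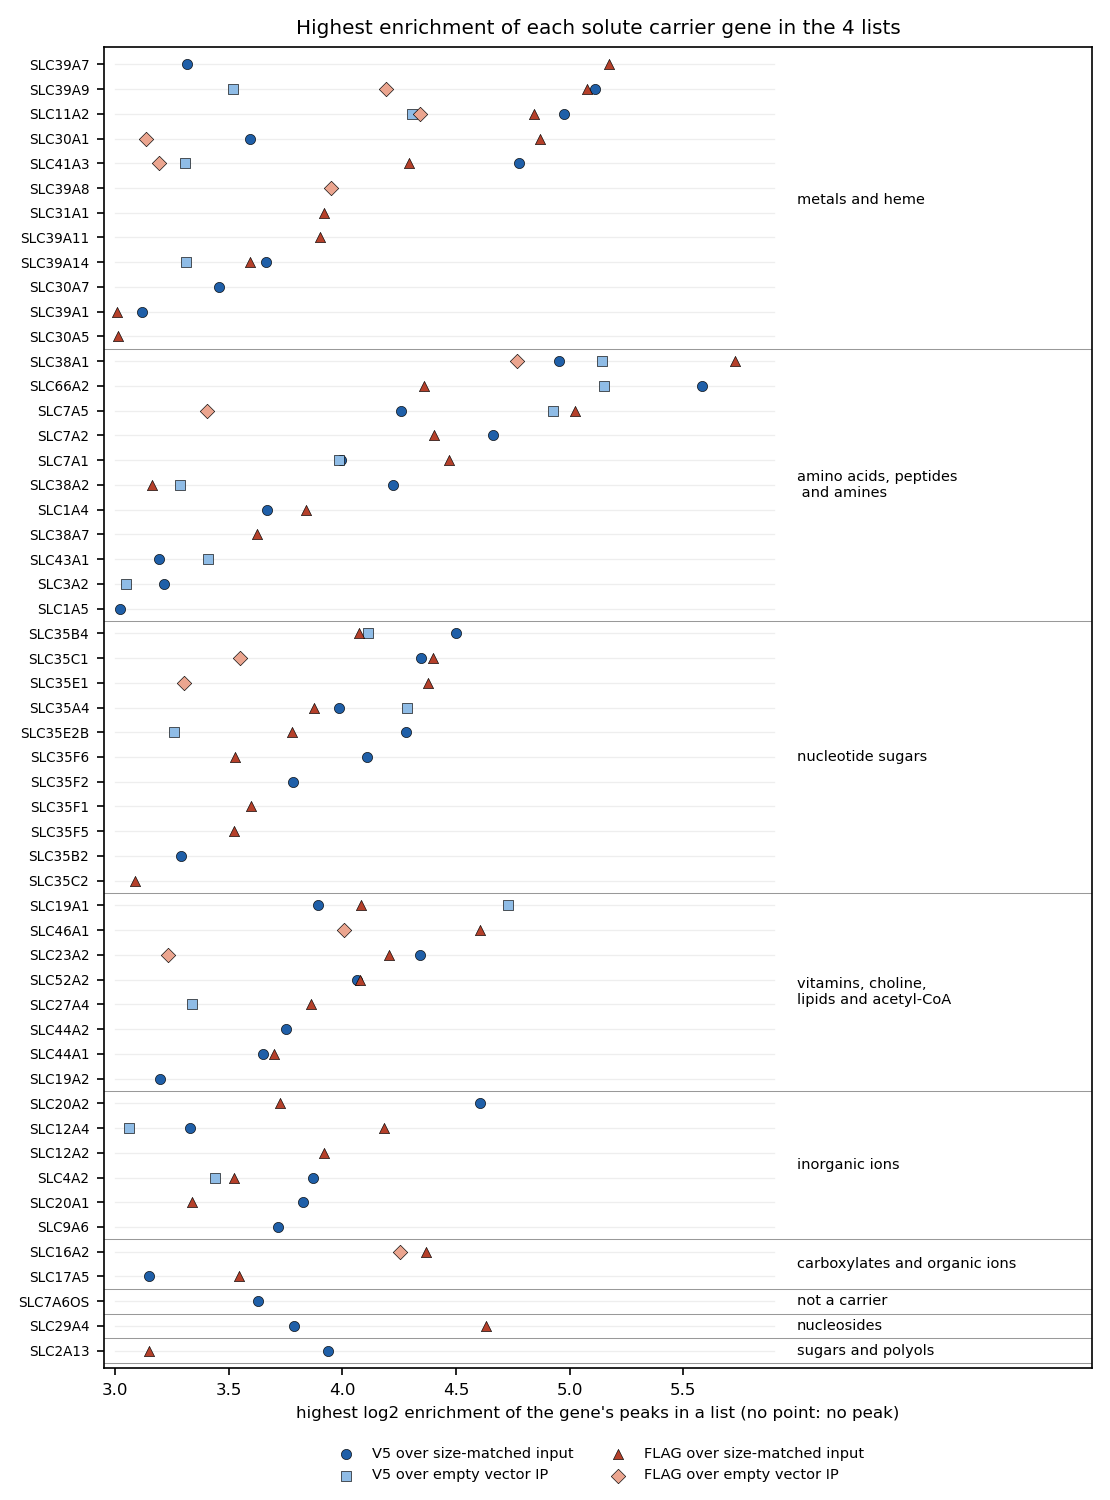
The highest log2 enrichment (x axis) of each of the 53 solute carrier genes with a peak (y axis, grouped by carrier class), with 1 point for each list in which the gene had a peak. Values run from 3.01 to 5.73, and only SLC38A1, SLC39A9, SLC11A2, SLC41A3 and SLC7A5 have points in all 4 lists.

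The share of genes with a peak varied between classes of substrate. Several classes are small, and no interval was computed for these shares. Expression was not analysed, so its part in the shares of classes and families was not tested. The nucleotide sugar class, taken as the whole family SLC35, had a peak in 11 of 30 genes (36.7%). Metal and heme carriers had one in 12 of 35 (34.3%), and carriers of vitamins, choline, lipids and acetyl-CoA in 8 of 26 (30.8%), beside 18.1% of protein-coding genes. Amino acid, peptide and amine carriers had one in 11 of 72 (15.3%), inorganic ion carriers in 6 of 56 (10.7%), carriers of carboxylates and organic ions in 2 of 61 (3.28%) and sugar and polyol carriers in 1 of 34 (2.94%). Nucleoside carriers had one in 1 of 7. No peak was found for the 22 genes of family SLC22 (organic cation and anion carriers), the 19 of SLC6 (sodium-coupled neurotransmitter and amino acid carriers), the 12 of SLC5 (sodium-coupled glucose carriers and relatives) or the 10 of SLC26 (anion exchangers), families chosen for naming after their counts were seen.

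**Figure D3:**
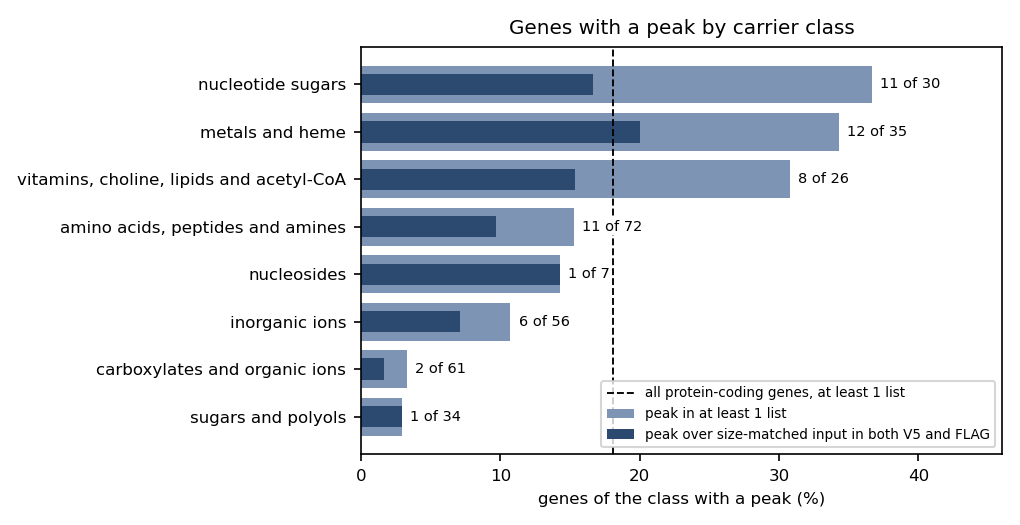
Share of each carrier class's genes found with a peak in any list (light bars; x axis in %) and with a peak over size-matched input in both V5 and FLAG (dark bars). The dashed line is the share over all protein-coding genes, 18.1%. Nucleotide sugar, metal and vitamin carriers lie above it and the other classes below. No intervals are drawn.

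Among the amino acid carriers, 69 of the 89 peaks lay in 3′ UTRs. SLC7A5, SLC7A1 and SLC38A1 held 59 of these 69, and the other 8 genes had 10 of their 24 peaks in 3′ UTRs. SLC7A1 (ENSG00000139514.13), the importer of cationic amino acids such as arginine, had 23 peaks, 22 of them in a 3′ UTR of 5066 nt, where they began between 832 and 4215 nt after the stop codon. Its maxima were 4.00 over V5 input, 3.98 over V5 empty vector and 4.47 over FLAG input, and FLAG over empty vector held no peak on it. Its paralog SLC7A2, on chromosome 8, had CDS peaks only, at 4.54 in exon 4 and 4.66 in exon 5 over V5 input and at 4.40 and 4.33 in exon 5 over FLAG input. No peak of either antibody over the empty vector lay on SLC7A2. SLC66A2 (ENSG00000122490.19), of the PQ-loop proteins, had the highest peak of all carriers over V5 input, 5.58 in a peak of 32 nt beside one of 132 nt at 4.79, and stood at 5.15 over V5 empty vector and 4.36 over FLAG input. FLAG over empty vector had no peak on it.

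The class of nucleotide sugar carriers was the whole family SLC35, named for members that bring activated sugars into the Golgi and the endoplasmic reticulum. Classes were set by family, so a member of this class need not carry a nucleotide sugar. The peaks of the class were also mostly in 3′ UTRs, 25 of 36. SLC35C1, the GDP-fucose carrier, had a single place at 4.34 over V5 input, 4.40 over FLAG input and 3.55 over FLAG empty vector. SLC35B4, a carrier of UDP-xylose and UDP-N-acetylglucosamine, stood at 4.50 over V5 input and 4.11 over V5 empty vector in the same 83 nt, whereas its only FLAG peak, at 4.08, began 1083 nt after the stop codon instead of 1505. Of the 30 genes with a peak over both inputs, 25 had V5 and FLAG peaks that overlapped, 83.3% beside 85.6% of such protein-coding genes. SLC35B4 and 4 others (SLC12A4, SLC1A4, SLC44A1 and SLC4A2, named for this count) did not.

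Inorganic ion carriers showed the opposite distribution, with 25 of 29 peaks in the CDS. SLC4A2, an anion exchanger, held 10 of these 25 and SLC20A1, a phosphate importer, 8. Both were named after their values were seen. Both also had peaks of the same list that meet across an exon junction. Over V5 input these ran from nt 3497 to nt 3546 of the SLC4A2 mRNA and from nt 731 to nt 799 of the SLC20A1 mRNA. The counts may therefore not be of separate places, which was not tested. Both genes have short 3′ UTRs, of 156 nt beside a CDS of 3726 nt in SLC4A2 and 800 nt beside 2040 nt in SLC20A1. The part of region length in this distribution was not tested. SLC20A2, the other phosphate importer of its family and the most enriched ion carrier, had instead a 3′ UTR place that began 11 nt after the stop codon over V5 input, at 4.61, and stood at 3.72 over FLAG input. Of the vitamin carriers, SLC23A2, an importer of ascorbate, stood at 4.34 over V5 input, 4.21 over FLAG input and 3.23 over FLAG empty vector, all in the 3′ UTR. In the remaining classes the genes with the highest means were SLC29A4, an equilibrative carrier of nucleosides and monoamines, at 3.79 over V5 input and 4.63 over FLAG input in the 3′ UTR, SLC2A13, a carrier of myo-inositol, at 3.94 and 3.15 in the CDS of exon 1, and SLC17A5, the lysosomal exporter of sialic acid, at 3.15 and 3.55 in the 3′ UTR. None of these 3 had a peak over the empty vector. SLC7A6OS bears a carrier's name only because of its place beside SLC7A6 and is not itself a carrier. It was named after its values were seen, and had 1 CDS peak at 3.63 over V5 input.

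By region, the share of solute carrier peaks in 3′ UTRs was 48.0% over V5 input (Wilson interval 38.3 to 57.7, beside 38.2% of all peaks on protein-coding mRNAs). It was 60.5% over V5 empty vector (45.6 to 73.6, beside 28.0%), 56.7% over FLAG input (47.1 to 65.8, beside 40.4%) and 75.0% over FLAG empty vector (53.1 to 88.8, beside 47.2%). The share in the CDS was 43.9% (51.7%), 32.6% (62.0%), 30.8% (50.8%) and 20.0% (48.1%) in the same order, and the remainder was in 5′ UTRs, 5.0% to 12.5%. The bound carriers also have long 3′ UTRs, with a median of 2545 nt and 60.2% of their summed mRNA length, beside 1604 nt and 50.8% in protein-coding genes with a peak and 1208 nt and 49.3% in carriers without one. The part of 3′ UTR length in the shares was not tested. Without the 5 genes with most peaks, a setting chosen after seeing the data, the 3′ UTRs held 25 of 68 peaks over V5 input (36.8%, interval 26.3 to 48.6), 8 of 18 over V5 empty vector (44.4%, 24.6 to 66.3), 35 of 75 over FLAG input (46.7%, 35.8 to 57.8) and 8 of 9 over FLAG empty vector (88.9%, 56.5 to 98.0). The share of all protein-coding peaks then lay within the interval in the first 3 of these lists and below it in the last. Counted by gene, 17 carriers had 3′ UTR peaks only, 14 CDS peaks only and 15 both, and 13 had a 5′ UTR peak.

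**Figure D4:**
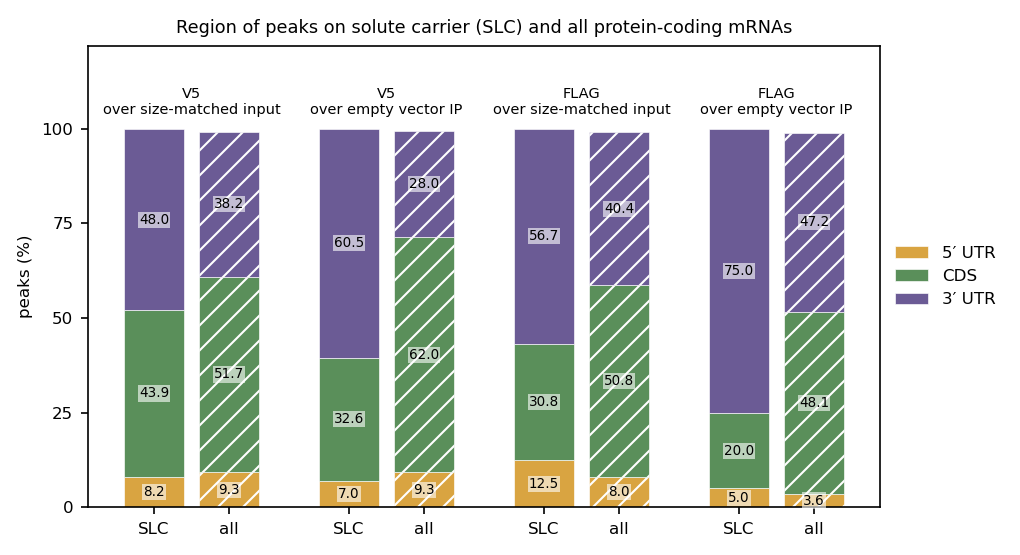
Share of peaks (y axis, %) in the 5′ UTR, CDS and 3′ UTR of solute carrier mRNAs (SLC, plain) and of all protein-coding mRNAs (all, hatched) in each of the 4 lists. The purple 3′ UTR part is taller for the carriers in every list, from 48.0% to 75.0%. The parts of the hatched bars fall slightly short of 100% as a few peaks lay in none of the 3 regions.

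Within 3′ UTRs, 61.7% of carrier peaks over V5 input and 59.3% over FLAG input were nearer to the stop codon than to the 3′ end (62.8% and 62.6% of all). Over the empty vector the share was 11 of 26 peaks with V5 (42.3%, beside 61.2%) and 4 of 15 with FLAG (26.7%, beside 58.4%). However, 18 of these 26 and 7 of these 15 lay on the 5 genes with most peaks. There, 1 place can hold several abutting peaks, and the share without these genes was not computed. Of CDS peaks, 44.2% over V5 input touched an exon junction (35.9% of all), 35.7% over V5 empty vector (35.6%), 37.5% over FLAG input (39.8%) and 1 of 4 over FLAG empty vector (426 of 926). On 7 carrier mRNAs, 13.2% of the 53 beside 13.6% of protein-coding genes with a peak, 13 pairs of peaks of the same list ended within 1 nt of either end of an annotated intron, as in SLC11A2. Their enrichments differed by a median of 0.10 and at most 0.88, and 3 pairs had identical −log10 p. Such a pair was seen on SLC39A7, the zinc carrier of the endoplasmic reticulum, around an intron of 303 nt that its canonical transcript retains and 7 other transcripts remove. Both members of the pair stood at 3.32 over V5 input and both at 5.05 over FLAG input. Whether the peaks of such pairs are separate places was not tested.

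V5 and FLAG lists share no library, so their values over size-matched input can be set against each other. Over the 30 carriers with a peak in both, the highest value per gene had a Pearson r of 0.41 and a Spearman rho of 0.379, beside 0.505 and 0.455 over 1857 protein-coding genes. These are descriptions across genes, which are not independent replicates and share their antibodies' libraries. FLAG was higher in 13 of 30, beside 883 of the 1857, and the median of FLAG minus V5 was -0.09 on the log2 scale, beside -0.04. The difference was within 0.5 in 18 of the 30 carriers and beyond 1 in 4, beside 1072 and 245 of the 1857 protein-coding genes. The 4 carriers were SLC39A7 (5.17 with FLAG, 3.32 with V5), SLC30A1, a zinc exporter (4.87 and 3.59), SLC38A2, a relative of SLC38A1 (3.16 and 4.22), and SLC66A2 (4.36 and 5.58). On SLC30A1 the FLAG value was that of a 3′ UTR peak of 40 nt with no V5 peak at it, and the V5 value that of a CDS peak where FLAG stood at 3.37. SLC39A7, SLC30A1 and SLC38A2 were named for this count. A further 10 carriers had a peak over input with V5 only and 12 with FLAG only. Of all protein-coding genes, 860 had one with V5 only and 782 with FLAG only, beside the 1857 with both.

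**Figure D5:**
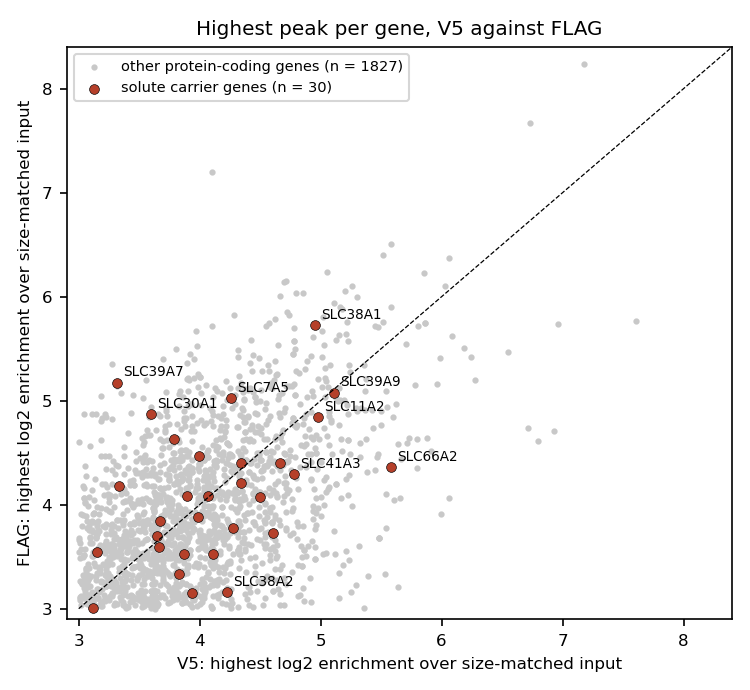
Highest log2 enrichment per gene over size-matched input with V5 (x axis) and FLAG (y axis), for the 30 solute carriers with both (red) and the other protein-coding genes (grey). The dashed line marks equal values. SLC39A7, SLC30A1, SLC38A2 and SLC66A2 lie farthest from it among the carriers.

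A peak over input that overlaps a peak over the empty vector is enriched against both controls. With V5 this held for 34 of 98 carrier peaks, 34.7% beside 36.5% of all. With FLAG it held for 17 of 104, 16.3% (Wilson interval 10.5 to 24.6) beside 28.1%. In the other direction, 34 of 43 V5 peaks over empty vector (79.1%, beside 76.4% of all) and 17 of 20 FLAG peaks over empty vector (85.0%, beside 90.5%) overlapped a peak over input of the same antibody, whose IP libraries they share. Between antibodies, 56.1% of V5 and 51.9% of FLAG carrier peaks over input overlapped each other, beside 53.6% and 55.4% of all.

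The GU-loop:5nt-stem arrangement was searched as the letters GU followed by any 5 bases, on the strand of the mRNA. Pairing probabilities were predicted for the interval and 50 nt of genomic sequence, introns included, on either side. It was met by 4 of the 7 reproducible carrier intervals (57.1%, Wilson interval 25.0 to 84.2), those shown above, beside 274 of 749 (36.6%). With the U asked to be below 0.5 it was met by 2 of the 7 (28.6%, beside 24.2%), with each stem base above 0.7 by 2 (28.6%, beside 13.1%), and without flanking sequence by 1 (14.3%, beside 28.8%). As 7 intervals allow little precision, peaks over input were also searched, a setting chosen after seeing the data. With V5, 60 of 98 carrier peaks met it (61.2%, interval 51.3 to 70.3) beside 41.7% of all, and with FLAG 53 of 104 (51.0%, interval 41.5 to 60.4) beside 39.7%. The carrier peaks were longer, with medians of 82.5 and 78 nt beside 75 and 72 nt, and among peaks under 50 nt the shares were 7 of 20 (35.0%, interval 18.1 to 56.7) beside 16.0% with V5 and 8 of 30 (26.7%, interval 14.2 to 44.4) beside 15.8% with FLAG. Among peaks of at least 50 nt the shares were 67.9% beside 51.8% with V5 and 60.8% beside 50.0% with FLAG, the latter within its interval of 49.4 to 71.1. Within each length group the carrier peaks were still longer. Under 50 nt the medians were 32.5 nt beside 28 nt with V5 and 36 nt beside 29 nt with FLAG. From 50 nt they were 93 nt beside 88 nt and 98.5 nt beside 87 nt, so this split does not remove the difference in length. A match is a prediction from sequence and says nothing of contact with Cas9.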

How the data were processed

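RNA bound by V5- and FLAG-tagged dSpCas9 was measured by eCLIP in 12 libraries, 2 replicates in each of 6 groups, which were assigned from the sample labels. The submitters' processing notes name UMI-tools 1.0.0, cutadapt 1.14, STAR 2.4.0i and SAMtools 1.6. The authors ran the eCLIP pipeline of the Yeo laboratory with peak calling after the published eCLIP protocol, aligned reads to hg38, ranked peaks by entropy, merged replicates by the Irreproducible Discovery Rate, and deposited a log2 enrichment (geometric mean of both replicates' ratios of IP to control) and a −log10 p-value per peak. The peak caller's version, its annotation and the scaling for library size are not given in the sources used here. The depth is unknown.

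Positions are 1-based on hg38. Genes and regions came from GENCODE 44, and a peak took the region of the canonical transcript with most of its bases. The CDS includes the stop codon. Carrier classes followed the textbook substrate of each family, with 8 classes. Pairing was predicted with RNAplfold of ViennaRNA 2.7.2 (window and span 70 nt, u = 1, U under 0.7, each stem base over 0.5) with 50 nt of genomic flank. Python 3.11.15, numpy 2.4.6, pandas 2.3.3, scipy 1.17.1 and pysam 0.24.0 were used, and the intersection, region and membership steps were tested on simulated data. Genes named in the text were those with a reproducible interval, the 10 whose V5 and FLAG maxima over input had the highest means, the 5 with most peaks, and the top of each carrier class and of each other transporter list. Genes named beyond this rule are marked as such. The members and lists were chosen with earlier results of these data known. No set test or random list was used. Alternatives were an overlap of 1 nt or of both intervals, FLAG first, merged or stricter peaks, regions by midpoint, and other pairing limits or no flank.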

Additional observations from a re-analysis of the deposited data

How the results depend on the processing

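Of 116 values recomputed under alternatives, 95 stayed within 1.5 times a count or within the interval of a share, and 21 moved. Some of the 95 could not move. Merging touching peaks cannot change a count of genes, and every carrier peak lay on a canonical exon. Others stayed because their interval was wide. The GU-loop:5nt-stem share of the 7 reproducible intervals fell from 57.1% to 28.6% with U below 0.5 and counted as unmoved. A log2 enrichment of at least 4 left 15, 7, 20 and 5 carrier genes and 23, 11, 33 and 8 peaks in V5 over input, V5 over empty vector, FLAG over input and FLAG over empty vector, fewer by construction, and 1 reproducible interval in 1 gene. It moved the 3′ UTR share to 60.9% over V5 input and 66.7% over FLAG input, and the V5 shares over empty vector to 27.3% in 5′ UTRs and 18.2% in the CDS. An overlap of 1 nt gave 13 reproducible intervals. Without the 5 genes with most peaks, the 3′ UTR shares were 36.8% over V5 input, 44.4% over V5 empty vector, 46.7% over FLAG input and 88.9% over FLAG empty vector, where 5′ UTR peaks fell to 0%. Without genomic flanks, 1 of 7 reproducible intervals met the GU-loop:5nt-stem arrangement (14.3%, beside 28.8% of all 749), and the cause was not tested.

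No paired analysis was possible because each list holds 1 value per peak for both replicates, and leaving out a replicate was not possible for the same reason. The lists give neither the spread between replicates nor the depth, and a difference between 2 enrichments has no known error.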

Other observations

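Other membrane transporters and the partners of carriers were counted for comparison. Of all protein-coding genes, 18.1% had a peak and 2.07% a reproducible interval. At such a share, the lack of a reproducible gene in lists this small says little. The mitochondrial SLC25 carriers had a peak in 14 of 49 genes (28.6%) with 10 reproducible intervals in 3 of them, SLC25A11, SLC25A25 and SLC25A3. SLC25A11, which exchanges oxoglutarate and malate, had the highest mean, at 5.36 with V5 and 5.10 with FLAG over input. ABC transporters had a peak in 7 of 46 genes (15.2%). ABCE1, a ribosome recycling factor and not a transporter, was highest at 4.45 and 3.83 and was reproducible. P-type and V-type ATPases had a peak in 17 of 62 genes (27.4%), none of them reproducible. ATP6V1C1, a subunit of the proton pump, stood at 5.11 and 5.94. MFSD transporters had a peak in 2 of 17 genes (11.8%), and of the 11 SLCO organic anion carriers none had a peak. Of 24 partners and regulators of carriers, 11 had a peak (45.8%). BSG, a chaperone of lactate carriers, and TFRC, the transferrin receptor, held a reproducible interval each. The highest of these partners and regulators was MTF1, a zinc-sensing transcription factor, at 4.72 and 4.16.

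SLC39A8, a zinc and manganese importer, was the only carrier whose peaks were all in FLAG over empty vector, at 3.95 and 3.47 in its 3′ UTR. SLC19A1, the reduced folate carrier, had a 5′ UTR peak of 2 nt at 4.73 over V5 empty vector that abutted one of 63 nt at 4.51. Both were singled out after their values were seen.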
